A study of Mus musculus with 5 samples.

Results

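Chaperones and heat shock proteins were examined in the livers of mice with the eyeless mutation of Pitx3, on the arrays that compared these livers with wild-type liver RNA. Members were the probes whose gene symbol begins with Hspa, Hspb, Hspd, Hspe, Hsph, Hsp90, Dnaja, Dnajb or Dnajc, or names a subunit of the cytosolic chaperonin (Tcp1 and the Cct genes). By this choice 103 of the 20355 probes of the deposited table were members, and they stood for 64 of 9930 named genes. The choice used gene names and no measured value, but it was made with earlier results of these data known. By the known place of their proteins, 38 genes (63 probes) were cytosolic, 11 genes (15 probes) belonged to the endoplasmic reticulum and 8 genes (13 probes) to mitochondria. The other 7 genes (12 probes) act elsewhere, such as in the nucleus, or were not placed.

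Chaperones bind unfolded protein chains and help them reach or keep their folded shape. Hsp70 proteins hold and release chains in a cycle driven by ATP, J-domain proteins bring them their clients and start the hydrolysis of ATP, and Hsp90, the small heat shock proteins and the ring-shaped chaperonins take over clients or folding steps of their own. Hepatocytes secrete most plasma proteins and fold them in the endoplasmic reticulum, where Hspa5 (BiP) is the Hsp70, while each of the other compartments has its own set. Genes of cytosolic and mitochondrial chaperones are known to be induced by Hsf1 through heat shock elements, and those of reticulum chaperones by the unfolded protein response through ER stress elements.

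The mutant group held 5 male mice of 17 weeks with the strain label Pitx3eyl-/-, read here as homozygous for the eyeless allele, and each array carried the liver RNA of 1 of these animals. The other channel of every array held 1 RNA pool of wild-type mice, for which the sample labels give 4 animals and the labelling protocol 6. The mutant RNA carried Cy5 on replicates 1, 2 and 4 and Cy3 on the dye swaps, replicates 3 and 5. The labels mention no treatment, and give age, sex and strain for the mutant animals alone. No probe carried the symbol Pitx3, so the mutated gene itself was not measured here.

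The values are log2 ratios, read here as mutant over pool. That direction is likely but stated nowhere: the mutant is channel 1 in the labels, and a code for unmeasurable ratios changed sign with the dye, from which the swaps were read as already turned. Had they not been turned, the dye coefficient given below would hold the difference between mutant and pool. The text gives single ratios as deposited and mostly the mutant coefficient, with the dye coefficient or the values for unturned swaps beside the counts, the compartments and the members that split by dye. The arrays had medians of -0.19 to 0.23, lacked 21.9% to 33.3% of their probes and had SDs of 1.51 to 1.72. Over all probes, pairs of arrays with the same dye orientation had a Pearson r between -0.02 and 0.11, and pairs of opposite orientation between -0.26 and -0.05. Hepatocyte markers had 12 probes, which gave 86.7% of their possible values, but a ratio cannot show a level, and for the same reason none is given for any chaperone.

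Promoter letters are shown first because they use no measured value. Differences between compartments in their counts were not tested. RefSeq promoter windows, from 250 bases before to 50 bases after a start site of the mouse build GRCm38.p6, matched 54 of the 64 genes and gave 70 windows. The heat shock element was searched as GAA, TTC and GAA with any 2 bases between neighbours, or TTC, GAA and TTC on the other strand, and stood in 6 of the 70 member windows (8.57%), against 0.603% of all 32851 windows. It lay in 4 of 45 cytosolic windows, those of Dnajb6 and Hsph1, and in 2 of 6 mitochondrial windows, those of Hspd1 and Hspe1. Of the 11 reticulum windows 0 held it. The 6 windows overlap and hold 3 separate places in the genome, 1 of them shared by Hspd1 and Hspe1. The ER stress element was searched as CCAAT, any 9 bases and CCACG, or CGTGG, any 9 bases and ATTGG on the other strand, and stood in 3 of the 11 reticulum windows (27.3%), in 0 of 45 cytosolic and 0 of 6 mitochondrial windows, and in 0.119% of all windows. The 3 were those of Hspa5, Hsp90b1 and Dnajc3. The matched runs follow, written 5′ to 3′ on the strand of the gene, with the fixed letters of the motif in capitals. No window shown held both motifs, and a match describes letters, not a bound site.
Hspd1, chr1:55088059-55088076, minus strand: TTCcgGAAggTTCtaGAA
Hspe1, chr1:55088059-55088076, plus strand: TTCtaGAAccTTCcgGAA
Dnajb6, chr5:29735852-29735864, plus strand: GAAtcTTCcgGAA
Hsph1, chr5:149636288-149636300, minus strand: TTCtgGAAagTTC
Hspa5, chr2:34772025-34772043, plus strand: CCAATcggaggcctCCACG
Dnajc3, chr14:118937827-118937845, plus strand: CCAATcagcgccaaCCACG
Hsp90b1, chr10:86705638-86705656, minus strand: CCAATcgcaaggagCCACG
Hsp90b1, chr10:86705533-86705551, minus strand: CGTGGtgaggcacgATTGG

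Hspd1 and Hspe1, which encode the mitochondrial chaperonin Hsp60 and its lid Hsp10, lie head to head, and their windows share 285 bases. The run shown for Hspd1 is that of Hspe1 read on the other strand, with 2 overlapping matches in 18 bases. In Hsph1 the run begins 15 bases after one start site and 36 bases after another, and in Hspa5 46 bases lie between the run and the start site. The windows of Hspe1 and Hspa5 are printed whole because Hspe1 had the lowest estimate of the mitochondrial genes and Hspa5 the same sign on all 5 arrays. Both were thus picked by measured values, neither gene was called, and no link between motifs and values was tested.
Hspe1, chr1:55087898-55088197, plus strand: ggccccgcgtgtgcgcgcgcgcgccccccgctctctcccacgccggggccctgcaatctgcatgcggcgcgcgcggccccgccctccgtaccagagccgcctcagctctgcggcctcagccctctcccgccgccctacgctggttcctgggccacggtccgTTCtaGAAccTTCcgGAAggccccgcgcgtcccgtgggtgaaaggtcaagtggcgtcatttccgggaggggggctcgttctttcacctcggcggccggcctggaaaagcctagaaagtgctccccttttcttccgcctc
Hspa5, chr2:34771840-34772139, plus strand: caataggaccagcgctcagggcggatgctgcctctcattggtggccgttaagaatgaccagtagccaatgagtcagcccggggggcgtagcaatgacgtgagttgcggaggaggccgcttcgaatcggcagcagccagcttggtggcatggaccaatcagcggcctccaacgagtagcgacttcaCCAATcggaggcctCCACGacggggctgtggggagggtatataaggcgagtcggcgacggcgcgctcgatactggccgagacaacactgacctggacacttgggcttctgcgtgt

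Once the p-values were corrected for the number of probes, no chaperone transcript stood apart between mutant livers and pool. limma was fitted to every probe that had at least 4 measured arrays and both orientations of the dyes, with a mutant coefficient that weights both orientations equally and a dye coefficient (the mean over Cy5 arrays less that over Cy3 arrays, divided by 2). It called 0 of the 63 member probes tested at an adjusted p under 0.05 and 0 of all 11300 probes (0%). The 63 probes stood for 49 genes, 4 more genes (Dnajc3, Dnajc4, Dnajc7 and Hsp90aa1) could be tested only as the mean of different probes, and 11 were not tested. These 11 were Cct5, Cct6a, Dnaja3, Dnaja4, Dnajb3, Dnajc2, Dnajc28, Dnajc5g, Hsp90b1, Hspa1a and Hspa1l. The lowest adjusted p of a member from limma was 0.999. The pool counts as 1 control sample, so each ratio was tested against 0 and the spread between wild-type animals is in no error given here. In bulk liver, less RNA per cell and fewer cells of a type cannot be told apart.

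At an unadjusted p under 0.05 for the mutant coefficient there were 4 member probes, against 4.16% of all probes tested. The 2 above 0 stood against a background of 2.35%, and the 2 below 0 against 1.81%. Above and below 0 lay 27 and 36 of the member probes, with a median of -0.05 on the log2 scale, and 6087 and 5213 of all probes, with a median of 0.04. A mutant coefficient over 1 in size was found for 8 of 63 member probes and 1496 of 11300 probes. For 36 of the 63 the dye coefficient exceeded the mutant coefficient in size, as it did for 5971 of all probes tested. At an unadjusted p under 0.05 for the dye coefficient, 2 members lay above 0, against 1.49% of all probes, and 2 below 0, against 5.89%, which makes 7.38% in either direction for all probes. The lowest adjusted p for the dye coefficient from limma was 0.429, so 0 members and 0% of all probes were called for it as well.

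**Figure D1:**
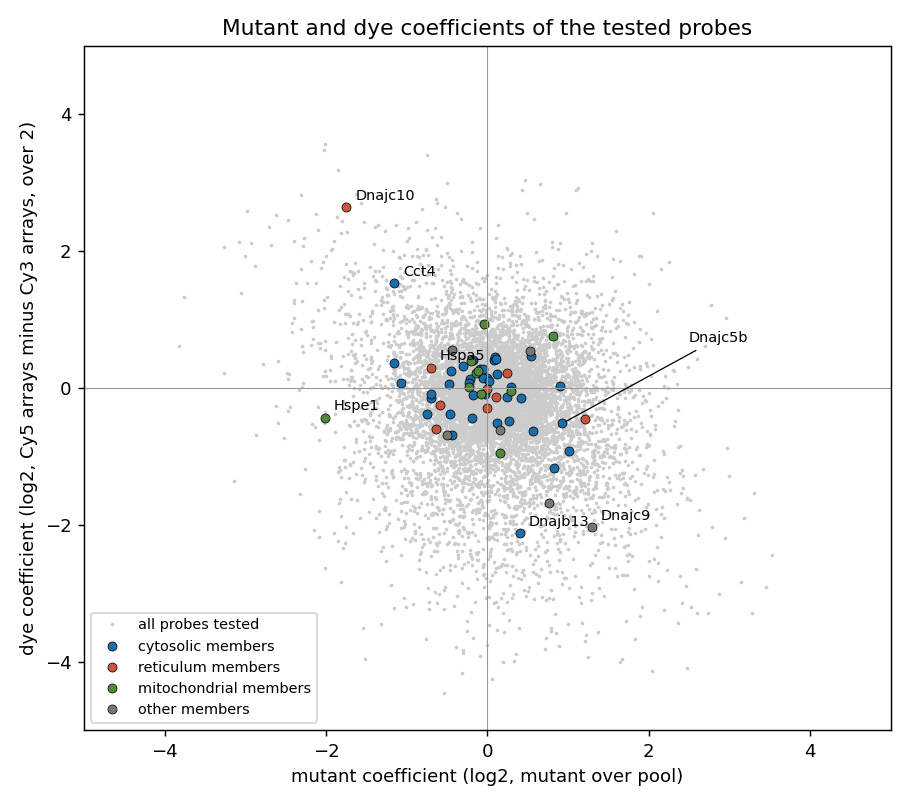
Each point is 1 probe tested, with its mutant coefficient on the x axis and its dye coefficient on the y axis, both on the log2 scale. Member probes, coloured by compartment, lie within the cloud of all 11300 probes (grey), and named are those with an unadjusted p under 0.05 for either coefficient, Hspa5 and Hspe1.

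Among the 4 members with an unadjusted p under 0.05 for the mutant coefficient, 3 had values that split by dye. Cct4, a subunit of the cytosolic chaperonin, had log2 ratios of 0.70 and 0.05 on replicates 1 and 2 and -2.26 and -3.12 on replicates 3 and 5. The 2 arrays with the mutant in Cy5 were thus above 0 and the 2 with it in Cy3 below, and the mutant coefficient of -1.16 ± 0.36 (SE, n = 4 arrays, limma p 0.0297) stood beside a dye coefficient of 1.54. Dnajc10, a J-domain protein and disulfide reductase of the reticulum lumen, had 0.25, 1.62 and 0.83 on replicates 1, 2 and 4 and -4.39 on replicate 3. Its mutant coefficient of -1.75 ± 0.45 (SE, n = 4 arrays, limma p 0.0157) weights that 1 Cy3 array as much as the 3 Cy5 arrays together, and without a dye term it was -0.43. Its dye coefficient was 2.65, with the lowest unadjusted p of any member for that coefficient (limma p 0.00342). A second Dnajc10 probe was measured only with the mutant in Cy5, at -1.37, 1.54 and -1.19 on replicates 1, 2 and 4, and could not be tested. Dnajc9, a nuclear J-domain protein that handles histones, had -1.49 and 0.03 on replicates 1 and 4 and 2.86 and 3.80 on replicates 3 and 5. Its mutant coefficient was 1.30 ± 0.43 (SE, n = 4 arrays, limma p 0.0374) and its dye coefficient -2.03, and the value of replicate 2 was coded as unmeasurable.

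Dnajc5b, a relative of the cysteine string protein known from testis, was the fourth, and its values did not split by dye. Its probe 12831 had -0.11, 0.71, 0.64, 0.65 and 2.26 on replicates 1 to 5. It was above 0 on 4 of 5 arrays and highest on replicate 5, with a mutant coefficient of 0.93 ± 0.36 (SE, n = 5 arrays, limma p 0.0485), and 0.53 without replicate 5. The other Dnajc5b probe tested, 12121, had 0.42, 1.35, -1.09 and -0.34 on replicates 1, 2, 4 and 5 and a coefficient of -0.06 ± 0.60 (SE, n = 4 arrays), so the probes of this gene did not share a direction. Dnajb13, a J-domain protein of sperm flagella, had an unadjusted p under 0.05 for the dye coefficient alone. It had -2.03 and -1.40 on replicates 1 and 2 and 1.55 and 3.49 on replicates 3 and 5, all below 0 in Cy5 and above it in Cy3, with a dye coefficient of -2.12.

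Hspa5 was the 1 member of 38 measured on every array whose log2 ratio had the same sign on all 5, below 0. Of all 6364 probes measured on every array, 5.99% had 1 sign, 3.65% above and 2.34% below 0. Hspa5, the Hsp70 of the reticulum lumen whose promoter is printed above, had -0.04, -0.91, -1.39, -0.25 and -0.61 on replicates 1 to 5. Replicate 1 was close to 0 and replicate 3 the lowest, and 2 of the 5 values lay at ratios of small whole numbers. Whether such ratios mark dim spots was not tested. They made up 30.8% of the measured values of the hepatocyte markers and 25.7% of those of all named probes. The mutant coefficient was -0.70 ± 0.30 (SE, n = 5 arrays, limma p 0.0669, adjusted p 0.999), a fold of 0.615, and lay between -0.90 and -0.51 when each replicate was left out in turn. The dye coefficient was 0.30. If the swaps had not been turned, replicates 3 and 5 would change sign and Hspa5 would stand on both sides of 0. The 1 member with 1 sign would then be Cct3, above 0 at 0.45, 0.34, 0.46, 0.70 and 0.21 on replicates 1 to 5, against 8.03% of all probes with 1 sign, 3.35% above and 4.68% below 0.

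No other reticulum probe tested had 1 sign on all its arrays. Dnajb11, its J-domain partner in the lumen, had 0.33, 0.06, 0.16, -1.28 and 0.40 on replicates 1 to 5. Only replicate 4 was below 0, and the mutant coefficient was -0.01 ± 0.35 (SE, n = 5 arrays). Dnajc1, anchored in the membrane with its J domain in the lumen, had 0.41, 0.19, 0.20, -0.69 and 0.27, again with only replicate 4 below 0, and a coefficient of 0.10 ± 0.30 (SE, n = 5 arrays). Dnajc18, a membrane J-domain protein with the highest coefficient of the compartment, had 0.28, 3.84, 1.24 and -0.53 on replicates 1, 3, 4 and 5, which gave 1.21 ± 0.83 (SE, n = 4 arrays). Hsp90b1, the Hsp90 of the lumen, was measured on 3 arrays and not tested. It was above 0 on each of them, at 0.94, 0.10 and 0.10 on replicates 1, 3 and 5.

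Dnajc3, which binds unfolded chains in the lumen and is known as an inhibitor of the kinase Eif2ak3, was measured by probes that shared no array. Probe 12230 had -0.97 and -1.36 on replicates 1 and 2, and probe 13381 had 2.40 and 4.30 on replicates 3 and 5. The dye coefficient of the gene, -2.26, is thus a difference between these 2 probes as much as between the dyes. Dnajc16, a membrane J-domain protein singled out after its values were seen, had -4.03, -4.15 and -3.15 on replicates 1 to 3 and 4.45 and 3.07 on replicates 4 and 5. These are the widest values of any reticulum member on 5 arrays, they did not split by dye, and the coefficient was -0.64 ± 1.66 (SE, n = 5 arrays).

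**Figure D2:**
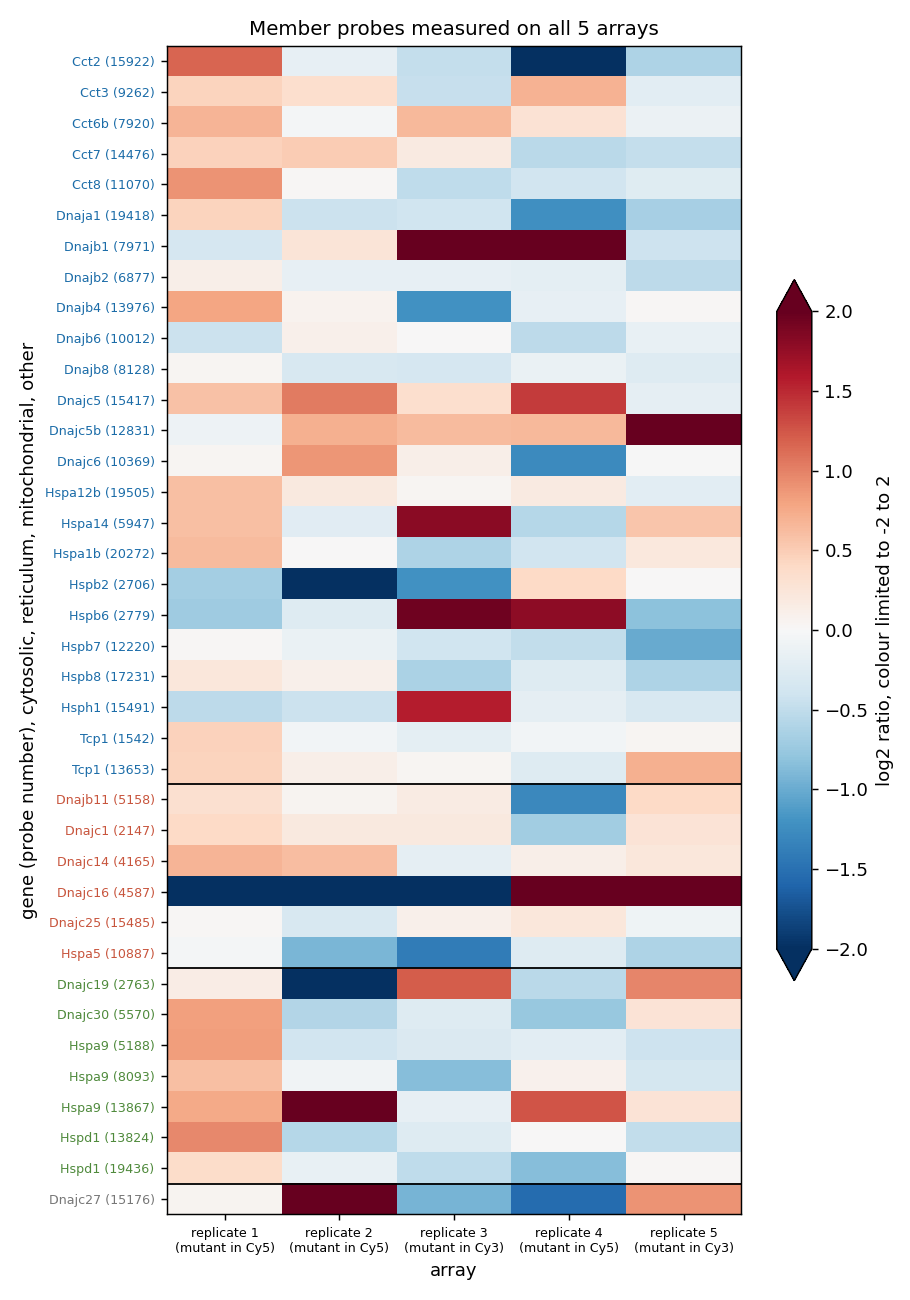
Log2 ratios of the 38 member probes measured on every array, 1 row per probe and 1 column per array, with the colour limited to -2 to 2 and lines between cytosolic, reticulum, mitochondrial and other members. The column of replicate 1 holds the most values above its array's median (32 of 38), and Hspa5 is the 1 row below 0 on all 5 arrays.

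In mitochondria, Hspe1 had the lowest coefficient of the compartment and Hspd1, its partner across the shared promoter, lay near 0. Hspe1 had -3.65, -3.80, -1.26 and 0.63 on replicates 1, 3, 4 and 5 and no value on replicate 2. It was over 3 log2 units below 0 on 1 array of each dye and above 0 on replicate 5, and the coefficient of -2.02 ± 0.92 (SE, n = 4 arrays, limma p 0.0886) was -3.13 without replicate 5 and -0.91 without replicate 3. Hspd1 probe 13824 had 0.96, -0.58, -0.26, 0.01 and -0.49 on replicates 1 to 5, and probe 19436 had 0.37, -0.16, -0.51, -0.86 and 0.02. Both were highest on replicate 1, and their coefficients were -0.12 ± 0.34 and -0.23 ± 0.32 (SE, n = 5 arrays each).

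Hspa9 (mortalin), the mitochondrial Hsp70 that pulls in imported proteins, had 4 probes. Probe 5188 had 0.83, -0.38, -0.29, -0.22 and -0.42 on replicates 1 to 5, and probe 8093 had 0.60, -0.08, -0.85, 0.08 and -0.35. Probe 13867 had 0.76, 2.68, -0.16, 1.26 and 0.27, so that it parted from the others on replicates 2 and 4. Their coefficients were -0.14 ± 0.31, -0.20 ± 0.28 and 0.81 ± 0.38 (SE, n = 5 arrays each), and the fourth probe, at -2.80, 0.62 and -1.41 on replicates 1 to 3, was not tested. It lay far below the others on replicate 1 and took the mean of the gene there to -0.15. Among the mitochondrial J-domain proteins, Dnajc15 and Dnajc19, which act at the import channel of the inner membrane, had coefficients of 0.30 ± 0.33 (SE, n = 4 arrays) and 0.15 ± 0.40 (SE, n = 5 arrays, probe 2763). Dnajc11, tied to the cristae-organising complex, lay at -0.05 ± 0.44 (SE, n = 4 arrays) and Dnajc30 at -0.08 ± 0.36 (SE, n = 5 arrays). Dnaja3 was measured on 2 arrays and not tested.

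Of the cytosolic chaperonin TRiC, which folds actin and tubulin, 6 of 7 genes tested had a coefficient below 0 in the fit of gene means, with a median of -0.16 on the log2 scale, against 0.03 for all 6706 genes tested and 3105 of these below 0. No gene was called in that fit either (0 of 53 members, 0% of all genes). The direction below 0 was not shared by single probes. Tcp1 lay below 0 as a gene mean, but its tested probes had coefficients of 0.02 and 0.24. The mean of Cct6b was below 0 as well, with probe coefficients of 0.29, 0.10 and -1.16. Cct2 had 1.16, -0.16, -0.48, -3.53 and -0.61 on replicates 1 to 5, highest on replicate 1 and far lower on replicate 4 than elsewhere, with a coefficient of -0.69 ± 0.73 (SE, n = 5 arrays). Cct8 had 0.89, 0.02, -0.50, -0.38 and -0.24, and Cct7 had 0.46, 0.51, 0.18, -0.54 and -0.48. Cct3 had 0.45, 0.34, -0.46, 0.70 and -0.21, above 0 on the 3 Cy5 arrays and below it on the 2 Cy3 arrays. The coefficients of Cct8, Cct7 and Cct3 were -0.10 ± 0.31, 0.00 ± 0.32 and 0.08 ± 0.26 (SE, n = 5 arrays each). Cct5 and Cct6a were not tested.

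Tcp1 was the member whose probes came closest to each other. Probe 1542 had 0.47, -0.05, -0.20, -0.06 and 0.04 on replicates 1 to 5, and probe 13653 had 0.45, 0.11, 0.04, -0.25 and 0.71. They differed by a median of 0.197 over the 5 arrays, and their coefficients were 0.02 ± 0.27 and 0.24 ± 0.29 (SE, n = 5 arrays each). The third Tcp1 probe had -2.44, 0.40 and -1.82 on replicates 2, 4 and 5, which drew the mean of the gene to a coefficient of -0.16. Cct6b, the subunit known from testis, had 3 probes tested, with coefficients of 0.29 ± 0.29 (n = 5 arrays), 0.10 ± 0.47 and -1.16 ± 1.18 (SE, n = 4 arrays each). On replicate 1 these probes stood at 0.68, -0.49 and -4.01.

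The inducible cytosolic chaperones, the usual readout of a heat shock response, showed no common direction. Hspa1b, the stress-inducible Hsp70, had 0.63, 0.01, -0.62, -0.38 and 0.21 on replicates 1 to 5, around 0, with a coefficient of -0.06 ± 0.31 (SE, n = 5 arrays). Dnajb1, its J-domain partner, had -0.33, 0.25, 2.15, 2.90 and -0.41, over 2 log2 units on replicates 3 and 4 and within 0.5 of 0 on the others. Its coefficient in the fit of gene means, 0.90 ± 0.65 (SE, n = 5 arrays), was the highest of any cytosolic gene in that fit. Hsph1, the Hsp110 nucleotide exchange factor with the heat shock element printed above, had -0.53, -0.43, 1.57, -0.18 and -0.32, above 0 on replicate 3 alone, and lay at 0.12 ± 0.37 (SE, n = 5 arrays). Hspa4, the other Hsp110, had 1.07, 1.23, -2.34 and -0.75 on replicates 1, 3, 4 and 5 and lay at -0.20 ± 0.74 (SE, n = 4 arrays). Hspa1a, whose sequence is nearly that of Hspa1b so that a cDNA spot may bind both, was not tested.

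Dnaja1, a J-domain partner of cytosolic Hsp70 in import and refolding, had 0.44, -0.44, -0.41, -1.23 and -0.66 on replicates 1 to 5, below 0 on 4 arrays, with a coefficient of -0.47 ± 0.35 (SE, n = 5 arrays). Hsp90aa1, the inducible cytosolic Hsp90, had gene means of -0.63, -0.84, 1.16, -1.80 and -0.08 from 2 probes of 3 arrays each, and a coefficient of -0.28 ± 0.36 (SE, n = 5 arrays). Replicate 1 was the 1 array on which both of its probes were measured, so the array values mix probes. Hspb1 (Hsp25), a small heat shock protein that binds actin, had -0.82, -0.85, -0.25 and 0.06 on replicates 1, 2, 3 and 5 and lay at -0.47 ± 0.31 (SE, n = 4 arrays). Of the 6 small heat shock protein genes tested, 4 lay below 0, with a median of -0.36. Hspb3, known from muscle, was below 0 on each of its 4 arrays, at -0.48, -0.68, -2.24 and -0.38 on replicates 1, 2, 4 and 5, and lay at -0.75 ± 0.52 (SE, n = 4 arrays).

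Dnajb6, a suppressor of protein aggregation, had 5 probes, and those tested had coefficients on both sides of 0. Probe 10012, on every array, had -0.43, 0.11, 0.01, -0.52 and -0.15 and a coefficient of -0.18 ± 0.27 (SE, n = 5 arrays). Probe 1992 was below 0 on each of its 4 arrays, at -2.38, -0.07, -1.15 and -0.53 on replicates 1 to 4, with -1.07 ± 0.60 (SE), and probe 12591 lay at 0.11 ± 0.33 (SE, n = 4 arrays). Probes 9719 and 11425 were not tested. The first had -2.94, -4.03 and -2.08 on replicates 1, 2 and 5, and the second -1.12, 1.59 and 0.91 on replicates 1, 3 and 4. Over the 29 J-domain genes tested, 18 lay above 0, with a median of 0.10, and 3601 of all 6706 genes did. Hspb8, Hspa14, Dnajb4, Dnajc6 and Dnajc17 also had 2 probes tested each. The coefficients were 1.01 and -0.30 for Hspb8, 0.83 and 0.56 for Hspa14, -0.44 and -0.18 for Dnajb4, 0.27 and -0.03 for Dnajc6 and 0.76 and -0.49 for Dnajc17. Hspb11, an intraflagellar transport protein that only bears the name, had the lowest coefficient of the members outside the 3 compartments in the fit of gene means, -0.44 ± 0.33 (SE, n = 4 arrays).

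The remaining 12 member probes tested, 1 each of 12 genes, had 6 coefficients above and 6 below 0. They ranged from -0.69 ± 0.46 (SE, n = 5 arrays) for Hspb2, a small heat shock protein of muscle, to 0.55 ± 0.29 (SE, n = 5 arrays) for Dnajc5, the cysteine string protein of secretory vesicles.

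Different probes of 1 gene gave unlike values, for the members as for the rest of the table. Over 17 pairs of tested probes of 11 member genes the median absolute difference on an array had a median of 0.891 on the log2 scale, and over 1777 pairs of 1248 named genes it was 1.06. The pairs had the same sign on 36 of 70 shared array values (51.4%), against 51.6% for all named genes. The closest pairs were those of Tcp1 at 0.197, Hspa9 probes 5188 and 8093 at 0.299 and Hspd1 at 0.507, and the farthest was that of Dnajc17 at 2.97. Whether a distant probe measures another transcript was not tested.

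**Figure D3:**
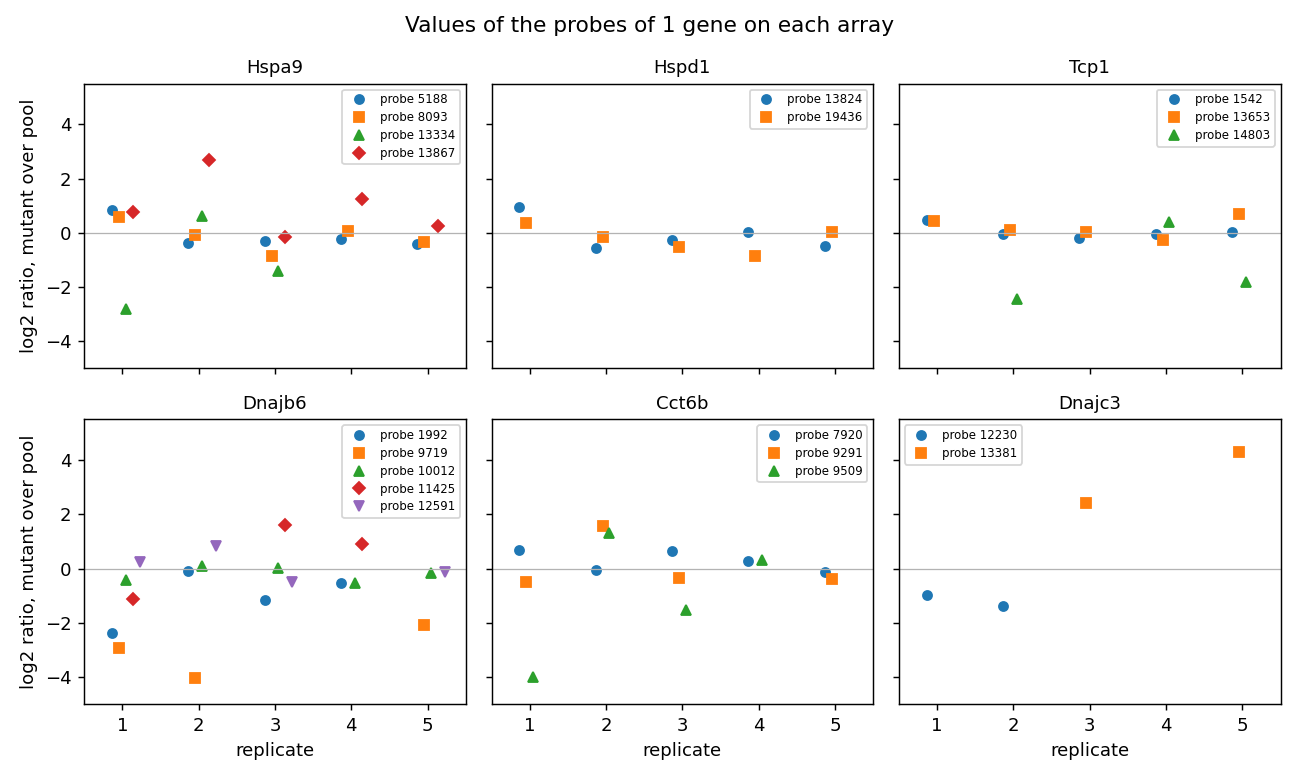
Log2 ratios of each probe of 6 member genes on the 5 arrays, 1 marker shape per probe, spread sideways within an array only for view. By median difference, probes 1542 and 13653 of Tcp1 lie closest (0.197), then probes 5188 and 8093 of Hspa9 (0.299). The Hspd1 probes follow at 0.507 and differ by up to 0.872. Other probes of Hspa9 and those of Dnajb6 and Cct6b part on some arrays, and the 2 Dnajc3 probes share no array.

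Between compartments, the mean differences of the medians were smaller than their spread over the arrays. Over the genes tested, the median mutant coefficient was -0.08 for 30 cytosolic genes, 0.03 for 10 reticulum genes and -0.06 for 7 mitochondrial genes, against 0.03 for all 6706 genes. Above 0 lay 12 of the 30 cytosolic, 5 of the 10 reticulum and 2 of the 7 mitochondrial genes. On the single arrays the cytosolic medians were 0.03, -0.07, -0.01, -0.14 and -0.21 for replicates 1 to 5. The reticulum medians were 0.02, -0.13, -0.18, -0.18 and 0.24, and the mitochondrial medians 0.21, -0.37, -0.32, -0.42 and 0.06. Mitochondrial genes were thus the highest of the 3 on replicate 1 and the lowest on replicates 2, 3 and 4. The medians of all genes were -0.19, -0.04, -0.02, 0.11 and 0.21.

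A scaling common to an array cancels in the differences between compartments. The cytosolic median minus the reticulum median was 0.01, 0.05, 0.17, 0.04 and -0.45 on replicates 1 to 5, a mean of -0.04 ± 0.24 (SD, n = 5 arrays). It was above 0 on 4 arrays and below it on replicate 5. The cytosolic minus the mitochondrial median was -0.18, 0.29, 0.31, 0.28 and -0.26, a mean of 0.09 ± 0.29 (SD, n = 5 arrays), above 0 on replicates 2, 3 and 4. The reticulum minus the mitochondrial median was -0.19, 0.24, 0.15, 0.24 and 0.19, a mean of 0.12 ± 0.18 (SD, n = 5 arrays), above 0 on all arrays but replicate 1. Each mean was smaller than the SD between the arrays, and no compartment pair had 1 sign on all 5. With unturned swaps the signs on replicates 3 and 5 would change, and the means would be 0.08 ± 0.23 for cytosolic minus reticulum, 0.07 ± 0.29 for cytosolic minus mitochondrial and -0.01 ± 0.23 for reticulum minus mitochondrial (SD, n = 5 arrays each). They would be above 0 on 4, 3 and 2 arrays, and the means of the first and last pairs would change sign. All these medians held the genes measured on each array, which differed between arrays. With only genes measured on all 5 arrays and the ratios as deposited, the means in the same order were 0.03 ± 0.32, 0.14 ± 0.34 and 0.12 ± 0.17 (SD, n = 5 arrays each). These differences were above 0 on 3, 3 and 4 arrays. The median dye coefficient was -0.03 for cytosolic, -0.22 for reticulum and -0.04 for mitochondrial genes, against -0.06 for all genes. When the soluble reticulum members tested were taken alone (4 genes, a choice made after the values were seen), the reticulum median coefficient was -0.36, with Dnajc3 alone above 0. That set lacks Hsp90b1, which was not tested. With Dnajc1 at 0.10 added, which is the planned lumen set, the middle gene was Dnajb11 at -0.01.

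**Figure D4:**
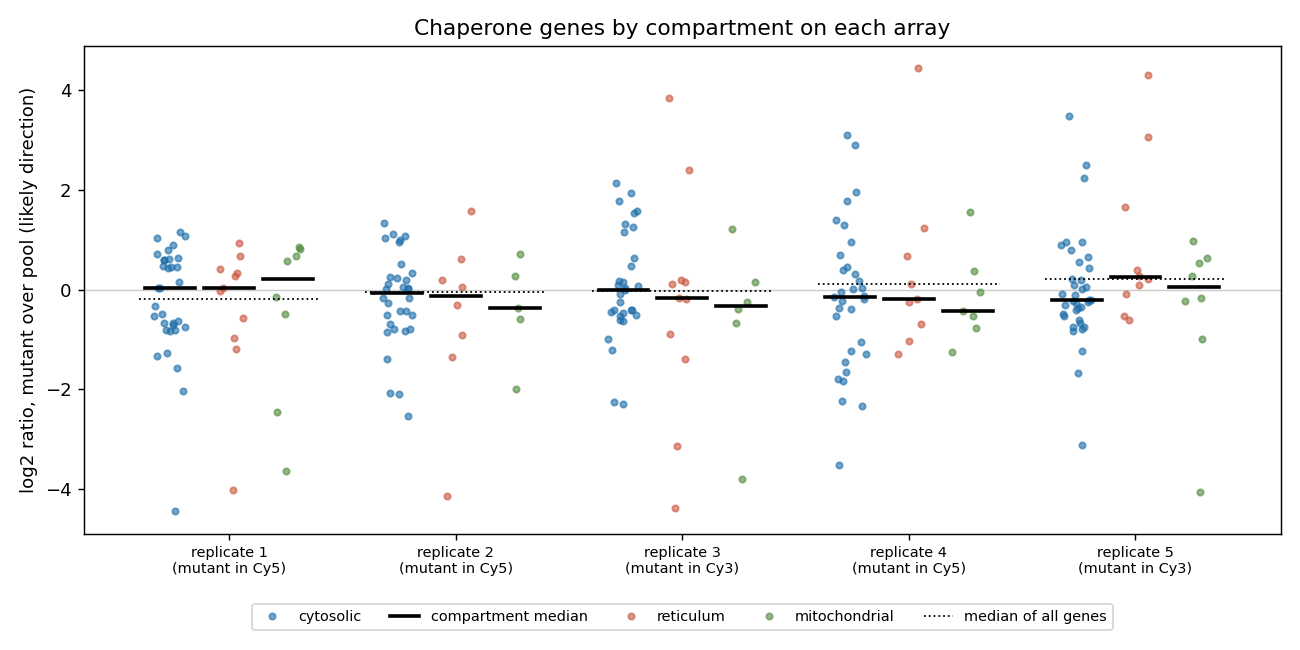
Log2 ratios of member genes (mean of a gene's probes) on each array, with cytosolic, reticulum and mitochondrial genes side by side, black bars for the compartment medians and dotted lines for the median of all genes. The points spread over several log2 units on every array, and the bars stay between -0.42 and 0.24.

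Among the 38 member probes measured on every array, values on replicate 1 stood higher than those of the table's probes of that kind. Of the 38, 20 (52.6%) had their highest value on replicate 1, against 26.3% of all 6364 such probes. Above the median of the array lay 32, 18, 16, 11 and 10 of the 38 on replicates 1 to 5, or 84.2%, 47.4%, 42.1%, 28.9% and 26.3%. For all probes measured on every array the shares were 67.7%, 51.5%, 47.3%, 40.0% and 42.0%. Members were thus above the shares of the table on replicate 1 and below them on the other 4, most of all on replicates 4 and 5. With unturned swaps, 57.9% of the members and 52.6% of all probes would lie above the median of replicate 3, and 73.7% and 57.9% above that of replicate 5. Replicate 1 would still hold the highest value of 39.5% of the members, against 24.0% of all probes. Over all member genes measured on replicate 1, whether or not on every array, the median was -0.15 (59 genes, 28 above 0), against -0.19 for all genes. Above the median of all genes on that array lay 30 of these 59, 17 of 33 among cytosolic genes.

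By compartment, the highest value fell on replicate 1 for 12 of 24 cytosolic, 3 of 6 reticulum and 5 of 7 mitochondrial probes. All 7 TRiC probes on every array were above the median of replicate 1, and 4, 3, 2 and 1 of them above those of replicates 2 to 5. All 7 mitochondrial probes on every array were above the median of replicate 1 too, and 1, 1, 1 and 3 above those of replicates 2 to 5. These mitochondrial probes were of Hspa9, Hspd1, Dnajc19 and Dnajc30. The means of 3 of these 4 genes lay above the gene median of replicate 1. Of the mitochondrial probes not on every array, Dnajc11 and Dnajc15 were above the median of replicate 1 at 0.86 and 0.58. Hspe1, the fourth Hspa9 probe, Dnaja3 and the second Dnajc19 probe were below it at -3.65, -2.80, -2.45 and -1.14, and over genes 5 of 8 lay above the gene median of that array. The 13 member probes on every array without any value at a ratio of small whole numbers were all above the median of replicate 1. Among them were Tcp1 probes 1542 and 13653, Cct8 and Dnajb4 probe 13976. Of the 2220 probes of that kind in the table, 70.5% lay above that median. This pattern was seen in the values and then described with them, so it has no test, and whether it comes from the animal, its RNA or the array cannot be told apart with 1 array per animal.

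**Figure D5:**
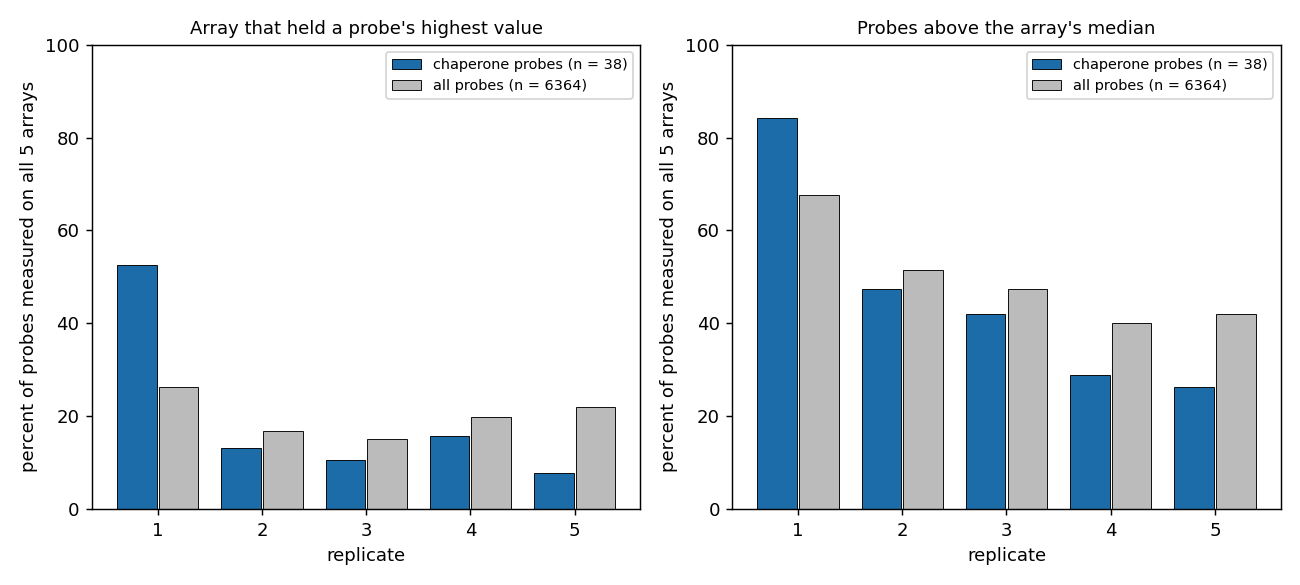
Share of the probes measured on every array that had their highest value on each replicate (left) and that lay above the array's median (right), for 38 chaperone probes in blue and all 6364 probes in grey. Replicate 1 held the highest value of 52.6% of the chaperone probes and 26.3% of all probes.

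The share of usable spots was a further readout. Of 515 possible member values 386 were measured, with 75.2% for cytosolic, 76.0% for reticulum and 81.5% for mitochondrial probes, against 71.9% for all named probes. On every array 38 of 103 member probes (36.9%) gave a value, against 32.7% of all named probes. The median SD between arrays was 0.547 for these members and 0.668 for all such named probes. Values at ratios of small whole numbers, none above 20, were 27.7% of the measured member values, with 27.0% for cytosolic, 36.8% for reticulum and 20.8% for mitochondrial probes, against 25.7% of those of all named probes. A further 7 member values were codes and were treated as missing.

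Of the genes that work with the chaperones, limma called 0 in the gene fit. At an unadjusted p under 0.05 lay 2.33% of all genes above 0 and 1.61% below. Of 17 cytosolic co-chaperones and regulators tested, 8 lay above and 9 below 0, 1 in each direction with such a p. Bag5, a nucleotide exchange factor of Hsp70, had -3.10, 0.18, -4.71 and -2.04 on replicates 1, 2, 3 and 5 and a coefficient of -2.42 ± 0.78 (SE, n = 4 arrays, limma p 0.0308). It was more than 2 log2 units below 0 on 3 arrays and above 0 on replicate 2. Bag2, of the same family, had -0.01, 2.15, 1.06, -0.14 and 3.72 on replicates 1 to 5, near 0 on replicates 1 and 4, and a coefficient of 1.53 ± 0.57 (SE, n = 5 arrays, limma p 0.0411).

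Of 14 reticulum folding and stress genes tested, 5 lay above and 9 below 0. Herpud1, a target of the unfolded protein response that takes part in degradation of reticulum proteins, had the lowest p of this list. It had -0.24, -0.20, -0.52, -0.78 and -1.01 on replicates 1 to 5, below 0 on all 5 arrays as was Hspa5. Of all single probes measured on every array, 2.34% were below 0 on all 5. The coefficient of Herpud1 was -0.58 ± 0.28 (SE, n = 5 arrays, limma p 0.0882). Manf, another reticulum stress gene, was above 0 on 4 arrays, at 1.24, 0.53, -0.63, 1.15 and 2.77, with 1.02 ± 0.55 (SE, n = 5 arrays). Of 15 mitochondrial import and protease genes, 8 lay above and 7 below 0, and the 2 with the lowest p were Tomm34 at 0.77 ± 0.39 (SE, n = 5 arrays) and the protease Lonp1 at 1.0 ± 0.62 (SE, n = 4 arrays).

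Markers of the cell types a liver sample holds were read in the same fit. Of the hepatocyte markers 7 were tested, with 2 above and 5 below 0, and the lowest p was that of Ass1, at -0.82 ± 0.34 (SE, n = 5 arrays, limma p 0.0563). Trf, with the next lowest p, went the other way at 0.90 ± 0.42 (SE, n = 4 arrays, limma p 0.0923). It had 0.17, 1.39, 1.58 and 0.47 on replicates 1, 3, 4 and 5. Of 3 erythroid markers 3 lay above 0, of 2 lymphocyte markers 2, of 3 stellate cell markers 2 and of 2 Kupffer cell markers 0. Cd8a, of T lymphocytes, had -0.13, 0.08, 1.63, 1.97 and 2.13 on replicates 1 to 5 and a coefficient of 1.26 ± 0.42 (SE, n = 5 arrays, limma p 0.0266, adjusted p 0.998). It was near 0 on replicates 1 and 2 and highest on replicate 5, and the part of such cells in the chaperone values was not tested.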

How the data were processed

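RNA was isolated on columns from homogenised livers, and 20 µg of it were reverse transcribed and indirectly labelled, per the labels' protocols. The authors deposited log2 ratios between the channels of each array, with the base read from the values, whose commonest steps are 1 apart. The sources used here do not name the scanner, background correction or normalization. Values over 12 in absolute size, which lie a log2 of 100000 above or below a constant of the array, were read as codes and set to missing. Values within 0.0011 of that constant plus the log2 of a ratio of whole numbers up to 20 were counted as small ratios.

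Names came from the platform's annotation: 14030 probes had 1 symbol, 5 several and 6320 none here. A RefSeq gene table of GRCm38.p6 held the identifiers of all 103 member probes and changed 0 symbols. Hspa8, Hsp90ab1, Dnaja2, Hspa13 and Dnajb9 were not among the names. Protein sequences were not used here.

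limma 3.58.1 (R 4.3.3, lmFit and eBayes), tested on simulated data, fitted an intercept, the mutant coefficient, and a dye term coded 1 for Cy5 and -1 for Cy3, with Benjamini-Hochberg adjustment over all 11300 probes or 6706 genes (probes averaged per array). Up to 3 residual degrees of freedom were joined by a prior of 2.24 with an SD of 0.85. Compartments are described by medians, without a test. Replicates are separate animals per the labels, and their number limits the precision.

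Members and lists were chosen with earlier results of these data known. Members named with values are core chaperones, those with 1 sign on at least 4 arrays, an unadjusted p under 0.05 or more than 1 probe tested, and the extreme genes of each compartment. In companion and marker lists the genes with the lowest p are named. Dnajc16 and Cd8a were named after their values were seen, as were Hspb2 and Dnajc5, the ends of a range. Alternatives were no dye term, other centring and quantile normalization, other filters, kept codes, removed small ratios, other compartment definitions, leaving out each replicate and, added after seeing the data, unturned dye swaps.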

Additional observations from a re-analysis of the deposited data

Results flagged for a closer look

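For 10 of 69 sets of array values examined (14.5%), 1 array stood farther from the rest than Dixon's criterion allows. The criterion expects about 1 in 20 for independent, normally distributed values, which these need not be. The share over all probes of the table is not given here, so the count is no result about chaperones. Replicate 4 was the array concerned in 4 of the 10 sets, all on its low side. Dnajb4 probe 749 stood at -2.43 on replicate 4, against 0.13 to 0.36 on its other arrays, and Dnajc1 at -0.69, against 0.19 to 0.41. Dnajb11 stood at -1.28, against 0.06 to 0.40, and Hspb3 at -2.24, against -0.68 to -0.38, also on replicate 4. On replicate 1, Hspa9 probe 5188 stood at 0.83, against -0.42 to -0.22, and Dnajc6 probe 6845 at -1.40, against 0.59 to 0.98. Cct6b probe 9291 stood at 1.59 on replicate 2, against -0.49 to -0.34, and Hsph1 at 1.57 on replicate 3, against -0.53 to -0.18. Among the differences between compartments, the cytosolic minus the reticulum median was -0.45 on replicate 5, against 0.01 to 0.17, and the reticulum minus the mitochondrial median was -0.19 on replicate 1, against 0.15 to 0.24.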

How the results depend on the processing

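No probe was called for either coefficient under any alternative run, with or without members (0 in all). The count of member probes with an unadjusted p under 0.05 for the mutant coefficient, 4, became 0 without a dye term, 2 with quantile normalization, with values required on all 5 arrays or with coded values kept, and 1 with small ratios set to missing. For the dye coefficient, 4 became 1 with all 5 arrays required or small ratios missing and 7 with at least 3 arrays. Leaving out each replicate gave 2 to 4 members for the mutant and 3 to 6 for the dye coefficient. Soluble reticulum members alone (added after seeing the data) gave a reticulum median of -0.36, 0.28 for cytosolic minus reticulum and -0.30 for reticulum minus mitochondrial. The planned lumen set, which adds Dnajc1, had Dnajb11 at -0.01 as its middle gene. With the dye swaps read as not turned (also added then), which makes the dye coefficient the mutant one, the count of member probes was also 4, the reticulum median was -0.22, cytosolic minus reticulum 0.18 and reticulum minus mitochondrial -0.18. With whole numbers limited to 10, small ratios were 11.4% of all member values, 11.4% of cytosolic, 10.5% of reticulum and 5.66% of mitochondrial values. For all named probes the share was 12.7%, so the reticulum share was no longer above it.

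Over the runs without 1 replicate, the median coefficient ranged from -0.17 to 0.032 for cytosolic, -0.19 to 0.24 for reticulum and -0.20 to 0.02 for mitochondrial genes. The differences ranged from -0.29 to 0.11 for cytosolic minus reticulum, -0.16 to 0.11 for cytosolic minus mitochondrial and 0.0046 to 0.31 for reticulum minus mitochondrial. Without replicate 4 the medians were 0.032 for cytosolic and 0.24 for reticulum genes, and without replicate 5 the reticulum median was -0.19. Signs of single member coefficients turned for 10 of 63 without replicate 4, 6 of 63 without a dye term and 1 of 63 after centring. The causes were not tested. No paired analysis was possible because the mutant animals were all set against 1 shared pool. With 5 arrays and an unknown background correction, small differences cannot be resolved.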
